A study of Mus musculus with 6 samples.

Results

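A set of 8 genes of glucocorticoid activation and response was followed through the cells of normal and fibrotic mouse lung. The genes were chosen by name, with earlier results of these data known: Hsd11b1, Nr3c1, Fkbp5, Tsc22d3, Per1, Zbtb16, Sgk1 and Klf9. Each of the 8 symbols had a row in all 6 count tables, which held 30828 to 32285 gene rows.

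Glucocorticoids are steroid hormones that act on cells through a nuclear receptor. The enzyme encoded by Hsd11b1 regenerates active hormone from its inert keto form inside the cell, and the receptor, encoded by Nr3c1, moves to the nucleus when bound and switches target genes on or off. Fkbp5 is a receptor co-chaperone that is induced by the hormone and lowers the receptor's affinity for it. Tsc22d3 (GILZ), Per1, Zbtb16, Sgk1 and Klf9 are targets in many tissues, and in the lung the pathway is known for its part in alveolar maturation and in restraining inflammation.

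Cells came from adult male Pdgfra-GFP reporter mice, whose nuclear green fluorescent protein marks Pdgfra-expressing fibroblasts (FBs). Mice of the single-dose experiment received PBS or bleomycin, a drug that injures the lung and leads to fibrosis, by oropharyngeal aspiration, and lungs were collected on day 14. The dose was 2 U/kg by the labels' protocol and by the paper's methods, whereas the labels' treatment entry has 4 U/kg. Mice of the repetitive experiment received PBS or bleomycin in 3 weekly doses, the bleomycin at 1 U/kg in the initial and middle weeks and 0.5 U/kg in the last, and lungs were collected 2 weeks later.

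For organoids, AEC2s (alveolar type 2 epithelial cells) from tamoxifen-treated SpcCreER tomato mice were cultured for 2 weeks with GFP+ FBs. The FBs came from PBS-treated mice (normal organoids) or from mice given 2 U/kg bleomycin (fibrogenic organoids). Every condition was 1 library made from cells pooled over 3 mice. No difference between conditions could therefore be set against the spread between mice, and none was tested. Intervals are exact at the 95% level and cover counting error only.

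Libraries held 7201081 to 238618743 unique molecular identifiers (UMIs), the tags that count captured transcripts, in 1015 to 10737 barcodes. Barcodes were assigned by panels of 6 marker genes, none of them among the 8. The FB gate held 903 (PBS) and 856 (bleomycin) barcodes after a single dose, 5462 and 8046 after repetitive doses, and 2216 and 4358 in normal and fibrogenic organoids. Between 3.28% and 19.0% of the barcodes kept in a library passed no gate. Subset names stand for barcodes that passed the marker gate of that subset. LipoFBs (lipofibroblasts) made up 83.8% of gated FBs after a single dose of PBS and 46.0% after bleomycin. The corresponding shares were 83.4% and 45.9% after repetitive doses. MatrixFBs (matrix fibroblasts) made up 10.5% and 18.3% after a single dose of PBS and bleomycin, and 11.8% and 28.3% after repetitive doses. FBs that passed no subset gate made up 5.54% and 25.2%, and 4.74% and 22.6%. How far lower LipoFB markers moved FBs out of the LipoFB gate was not tested. MyoFBs (myofibroblasts) passed the gate in 0 barcodes of either PBS library and made up 7.83% and 2.82% of FBs after single and repetitive bleomycin. In summed counts, fewer cells of a type and less RNA per cell cannot be told apart, so values are given for all FBs and within the subsets. All 6 FB markers were counted in the FBs of every library. Their sum was 4451 to 4557 CPM in the PBS and 13207 to 13952 CPM in the bleomycin lung libraries. LipoFB markers summed to 14320 CPM in LipoFBs and 3503 CPM in MatrixFBs after a single dose of PBS.

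Levels are given as CPM, the UMIs of a gene summed over the barcodes of a group and scaled by that group's UMI total. Hsd11b1 stood at 1504 CPM (interval 1474 to 1535) in FBs after a single dose of PBS and at 682 CPM (666 to 698) after bleomycin. In the repetitive experiment the values were 1354 CPM (1345 to 1364) and 603 CPM (596 to 609). The enzyme's transcript was thus 2.21-fold and 2.25-fold lower in the bleomycin libraries of the 2 experiments, and no interval of a PBS library met that of its bleomycin library.

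Within FBs, Hsd11b1 followed the LipoFB gate. After a single dose of PBS it reached 1717 CPM in LipoFBs and 393 CPM in MatrixFBs, the FBs that express Col14a1 and Dcn, a 4.37-fold difference. After a single dose of bleomycin it reached 1238 CPM in LipoFBs, 240 CPM in MatrixFBs and 108 CPM in MyoFBs. After repetitive PBS the LipoFB and MatrixFB values were 1524 CPM and 317 CPM, a 4.80-fold difference. After repetitive bleomycin they were 913 CPM and 268 CPM, with 79.6 CPM in MyoFBs. LipoFBs had the highest Hsd11b1 of the FB subsets in all 4 lung libraries and stood 11.4-fold and 11.5-fold above MyoFBs in the 2 bleomycin libraries.

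**Figure D1:**
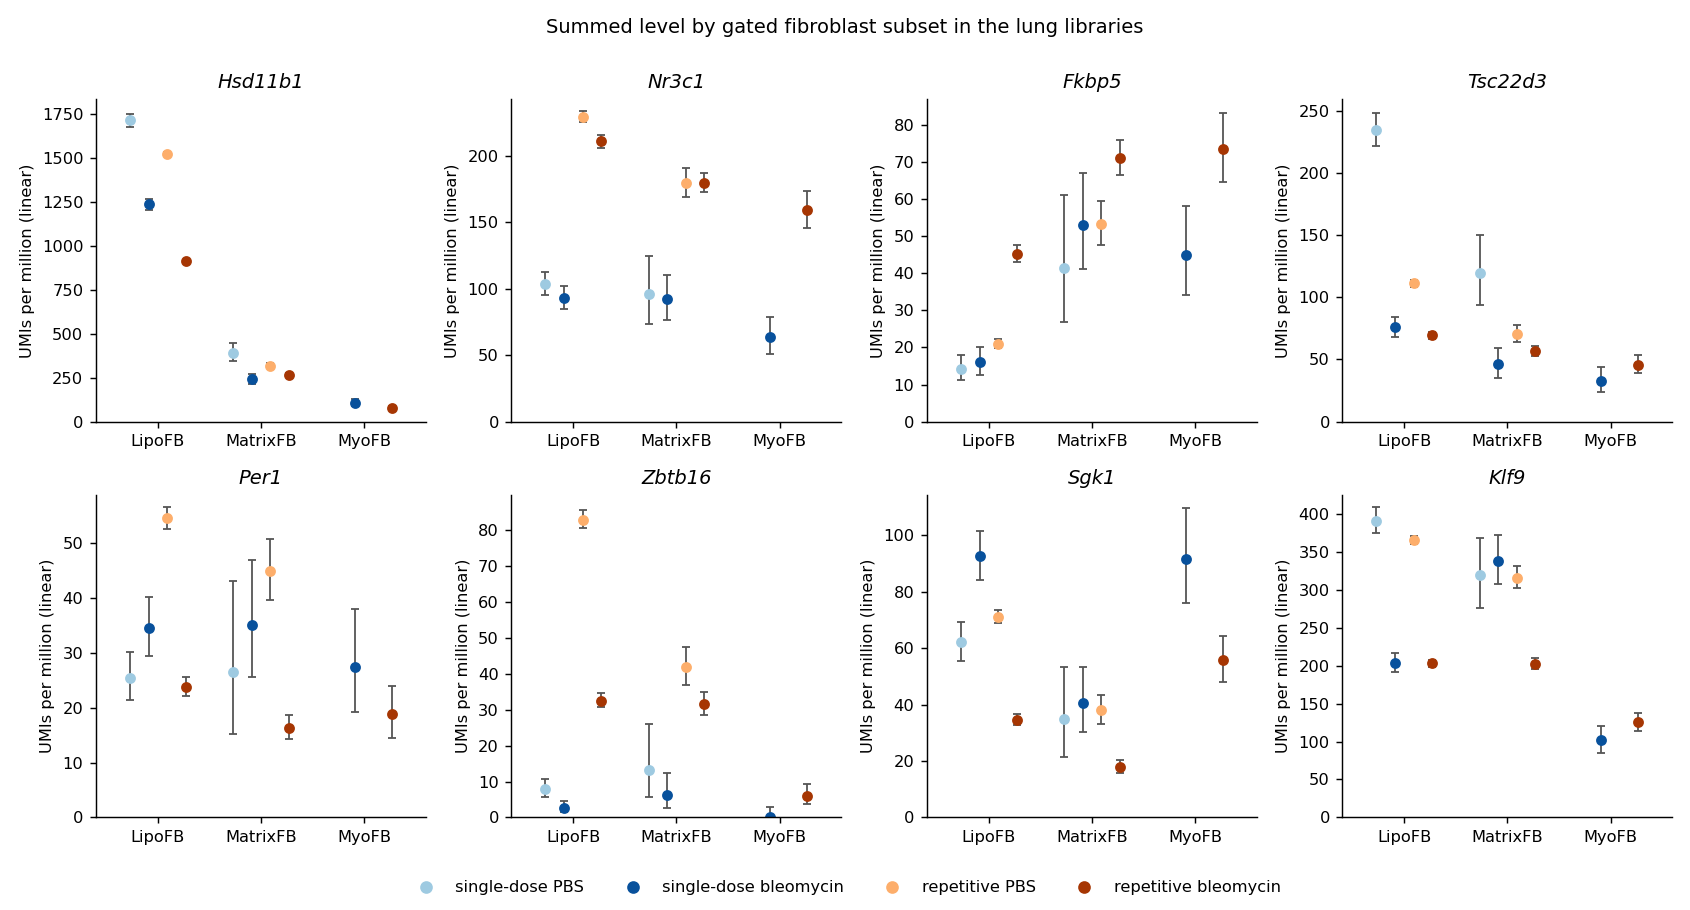
Levels of the 8 genes in CPM (linear axes, 1 panel a gene) in gated FB subsets of the 4 lung libraries, with exact 95% counting intervals as bars. Hsd11b1 was highest in LipoFBs in every lung library (913 to 1717 CPM), and Fkbp5 was lower in LipoFBs than in MatrixFBs in each of them.

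The lower Hsd11b1 after bleomycin was also present among LipoFBs alone, though smaller than among all FBs. After a single dose the bleomycin to PBS log2 ratio was -0.47 (-0.52 to -0.42) in LipoFBs against -1.14 (-1.19 to -1.10) in all FBs. After repetitive doses it was -0.74 (-0.76 to -0.72) against -1.17 (-1.19 to -1.15). In MatrixFBs the log2 ratios were -0.71 (-0.96 to -0.46) and -0.24 (-0.32 to -0.16). The markers of the gate moved with the gene: in LipoFBs the LipoFB markers summed to 14320 CPM and 6750 CPM after a single dose of PBS and bleomycin, and to 11246 CPM and 7286 CPM after repetitive doses. MyoFB markers in the same LipoFBs summed to 140 CPM and 1581 CPM, and to 289 CPM and 818 CPM, and their part in the LipoFB values of the 8 genes was not tested. All log2 ratios were computed after adding 1 CPM.

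Shares of barcodes with at least 1 Hsd11b1 UMI gave the same order. Because median depth was 3754 UMIs in FBs after repetitive bleomycin and 10515 UMIs after repetitive PBS, barcodes were thinned to 2000 UMIs each. After thinning, 89.1% of LipoFBs, 38.8% of MatrixFBs and 20.7% of immune barcodes had a UMI after repetitive PBS. The thinned shares after repetitive bleomycin were 73.5%, 38.1% and 12.7%, with 21.5% in MyoFBs. Unthinned, the LipoFB and immune shares were 82.2% and 26.1% after repetitive bleomycin, at median depths of 5711 and 4672 UMIs. Immune barcodes served as the comparison because the enzyme is not typical of resting immune cells, although activated macrophages can express it. How much free RNA added to the MyoFB and immune values was not tested.

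Nr3c1, the receptor itself, differed little between conditions, at 1.30-fold and 1.14-fold lower after single and repetitive bleomycin. In FBs it stood at 103 CPM (95.3 to 112) after a single dose of PBS and at 79.6 CPM (74.3 to 85.1) after bleomycin. The repetitive libraries gave 223 CPM (219 to 227) and 195 CPM (192 to 199). Within LipoFBs the log2 ratios were -0.15 (-0.33 to 0.03) and -0.12 (-0.16 to -0.08), so that the single-dose interval covered no difference. The count tables of the 2 experiments differ in their gene rows, 30828 to 30830 against 32285, so levels of one are only set beside those of the other.

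Receptor transcript was counted in all gated lung cell groups, with a narrower range than that of Hsd11b1. After repetitive PBS it reached 229 CPM (225 to 233) in LipoFBs, 180 CPM (169 to 191) in MatrixFBs, 257 CPM (230 to 286) in immune barcodes and 313 CPM (274 to 356) in the 70 endothelial barcodes. After repetitive bleomycin it reached 211 CPM (206 to 216) in LipoFBs, 180 CPM (172 to 187) in MatrixFBs and 159 CPM (146 to 173) in MyoFBs, beside 179 CPM (161 to 199) in immune barcodes. LipoFBs thus stood above MatrixFBs in both repetitive libraries, whereas their intervals overlapped in both single-dose libraries. MyoFBs stood below LipoFBs after a single dose of bleomycin too, at 63.4 CPM (50.5 to 78.5) against an interval of 84.5 to 102 CPM.

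Fkbp5 was higher after bleomycin in both experiments. In FBs it was 17.5 CPM (14.4 to 21.1) after a single dose of PBS and 31.2 CPM (28.0 to 34.7) after bleomycin. In the repetitive experiment it was 25.9 CPM (24.6 to 27.2) and 58.6 CPM (56.7 to 60.5), a 2.27-fold higher level after bleomycin. It was the one gene of the 8 that was more than 2-fold higher after bleomycin in either lung experiment.

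The Fkbp5 difference varied with the subset and with the experiment. Among LipoFBs of the single-dose experiment the levels were 14.3 CPM and 16.0 CPM, with a log2 ratio of 0.15 whose interval (-0.30 to 0.60) covered no difference. Among LipoFBs of the repetitive experiment they were 21.1 CPM and 45.3 CPM, with a log2 ratio of 1.07 (0.96 to 1.18). In MatrixFBs the log2 ratios were 0.35 and 0.41 after single and repetitive doses, against 0.80 and 1.15 in all FBs. MatrixFBs carried more Fkbp5 than LipoFBs in all 4 lung libraries, by 2.90-fold and 2.54-fold after single and repetitive PBS and by 3.32-fold and 1.57-fold after bleomycin. MyoFBs carried 45.0 CPM and 73.6 CPM in the 2 bleomycin libraries, also above LipoFBs.

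Hsd11b1 and Fkbp5 were thus opposite in their subset pattern. Between LipoFBs and MatrixFBs of the PBS libraries, Hsd11b1 was the 1 gene of the 8 past 2-fold higher in LipoFBs and Fkbp5 the 1 gene past 2-fold lower, in each library. Of all genes at 10 CPM or more, 8.13% were past 2-fold higher and 8.14% past 2-fold lower in LipoFBs after a single dose of PBS. The corresponding shares after repetitive PBS were 7.12% and 6.97%.

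Among the targets, Tsc22d3, which encodes the anti-inflammatory leucine zipper protein GILZ, had the lowest ratio after a single dose. In FBs it was 217 CPM (206 to 229) after PBS and 62.3 CPM (57.7 to 67.3) after bleomycin, a 3.49-fold lower level. The repetitive values were 107 CPM (104 to 109) and 61.9 CPM (59.9 to 63.9), a 1.72-fold lower level.

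The Tsc22d3 difference remained within subsets. Among LipoFBs the log2 ratios were -1.61 (-1.79 to -1.45) after a single dose and -0.67 (-0.75 to -0.60) after repetitive doses. Among MatrixFBs they were -1.36 (-1.87 to -0.85) and -0.30 (-0.48 to -0.13). LipoFBs carried 1.96-fold and 1.58-fold more Tsc22d3 than MatrixFBs in the PBS libraries, and MyoFBs carried 32.8 CPM and 45.6 CPM in the bleomycin libraries. The MyoFB intervals (23.8 to 44.2 and 38.7 to 53.4) lay below those of LipoFBs and met those of MatrixFBs.

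Klf9, a zinc finger transcription factor of the Kruppel-like family, was lower after bleomycin to a similar degree in both experiments. In FBs it was 381 CPM (366 to 397) after a single dose of PBS and 204 CPM (195 to 213) after bleomycin. With repetitive doses the levels were 359 CPM (354 to 364) and 197 CPM (193 to 200). The log2 ratios were -0.90 and -0.86, short of a 2-fold difference.

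Subsets of the single-dose experiment differed in Klf9. Among LipoFBs it was 391 CPM after PBS and 204 CPM after bleomycin. Among MatrixFBs it was 320 CPM (276 to 368) and 338 CPM (307 to 372), with a log2 ratio of 0.08 (-0.17 to 0.33). The single-dose MatrixFBs themselves differed in markers between PBS and bleomycin, with 16948 and 10824 CPM of MatrixFB markers, 7900 and 21811 CPM of FB markers, 3503 and 1065 CPM of LipoFB markers and 23.2 and 626 CPM of MyoFB markers. The repetitive MatrixFBs differed in the same directions, with 19094 and 15339 CPM of MatrixFB markers, 7277 and 18693 CPM of FB markers, 2720 and 1660 CPM of LipoFB markers and 25.7 and 343 CPM of MyoFB markers. The part of these shifts in the MatrixFB values of the 8 genes was not tested. In the repetitive experiment both subsets were lower after bleomycin, with log2 ratios of -0.85 (-0.89 to -0.80) in LipoFBs and -0.64 (-0.72 to -0.55) in MatrixFBs. MyoFBs carried 102 CPM and 125 CPM, and immune barcodes 17.8 to 23.7 CPM in the repetitive libraries.

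Zbtb16 encodes the transcription factor PLZF and is sparse in the single-dose libraries. It was 8.10 CPM (6.01 to 10.7) in FBs after PBS, from 50 UMIs, and 2.80 CPM (1.89 to 3.99) after bleomycin, from 30 UMIs. The repetitive libraries held far more of it, 77.4 CPM (75.2 to 79.6) after PBS and 28.2 CPM (26.9 to 29.5) after bleomycin. The log2 ratios of bleomycin over PBS were -1.26 (-1.80 to -0.71) and -1.43 (-1.50 to -1.35). The level also differed between the PBS libraries of the 2 experiments, where the gene rows of the table, the library and the regimen cannot be told apart.

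In the repetitive experiment the Zbtb16 difference was larger in LipoFBs, at 83.0 CPM and 32.6 CPM, than in MatrixFBs, at 42.0 CPM and 31.6 CPM, with log2 ratios of -1.32 (-1.42 to -1.23) and -0.40 (-0.63 to -0.17). MyoFBs carried 5.96 CPM (3.64 to 9.21) after repetitive bleomycin, 5.46-fold less than LipoFBs of that library. No Zbtb16 UMI was counted in the 67 MyoFBs after a single dose of bleomycin, with an interval that reaches up to 2.82 CPM.

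Per1, a core clock gene that glucocorticoids induce directly, had opposite directions in the 2 experiments. In FBs it was 25.3 CPM (21.5 to 29.6) after a single dose of PBS and 32.1 CPM (28.8 to 35.6) after bleomycin. After repetitive doses it was 53.1 CPM (51.2 to 54.9) and 21.2 CPM (20.1 to 22.4), a 2.50-fold lower level. Its log2 ratio in LipoFBs was 0.42 (0.10 to 0.75) after a single dose and -1.17 (-1.28 to -1.05) after repetitive doses, and in MatrixFBs of the repetitive experiment -1.40 (-1.66 to -1.15).

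Sgk1, a kinase that controls sodium channels and cell survival, showed the same contrast. In FBs it was 58.8 CPM (52.9 to 65.2) after a single dose of PBS and 78.3 CPM (73.1 to 83.8) after bleomycin. In the repetitive experiment it was 69.3 CPM (67.2 to 71.4) and 38.1 CPM (36.6 to 39.7). Its log2 ratios in LipoFBs were 0.57 (0.36 to 0.78) and -1.02 (-1.11 to -0.92). LipoFBs carried 1.78-fold to 2.28-fold more Sgk1 than MatrixFBs in the 4 lung libraries, but were not the highest FBs throughout. MyoFBs carried 91.6 CPM against 92.5 CPM in LipoFBs after a single dose of bleomycin, and 55.7 CPM (48.0 to 64.3) against 34.6 CPM (32.6 to 36.7) after repetitive doses. FBs that passed no subset gate carried 99.4 CPM (88.1 to 112) after repetitive PBS, above the 71.2 CPM (68.9 to 73.5) of LipoFBs.

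**Figure D2:**
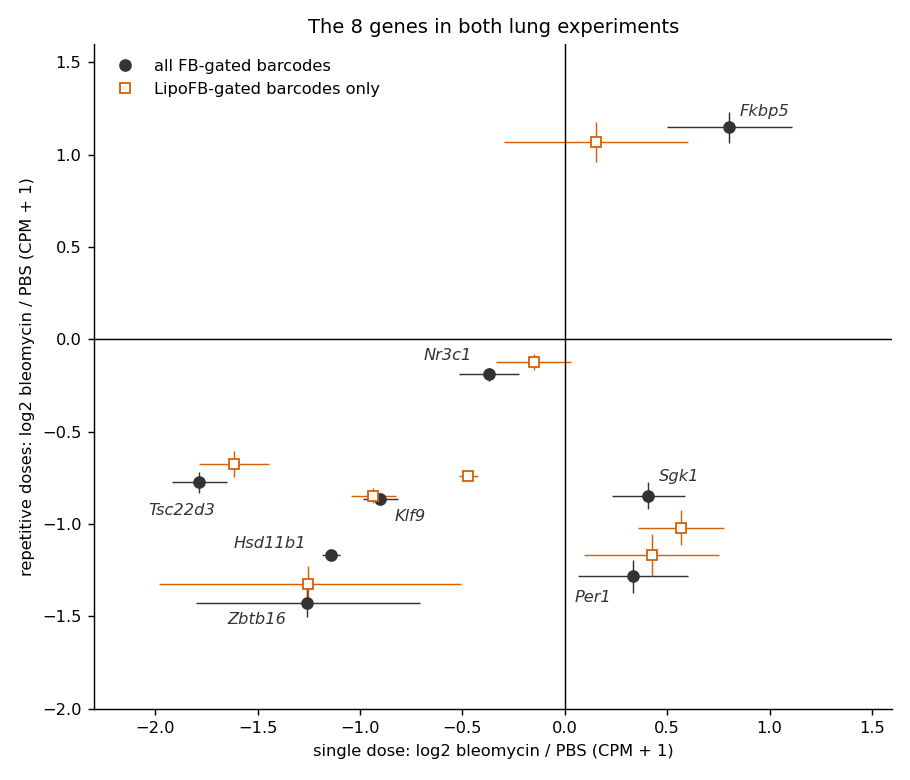
Log2 ratios of bleomycin over PBS (CPM + 1) after a single dose (horizontal axis) and after repetitive doses (vertical axis) for the 8 genes, in all FBs (filled circles) and in LipoFBs (open squares), with exact 95% counting intervals. Per1 and Sgk1 lie right of 0 and below 0 on the 2 axes, and Fkbp5 is the 1 gene above 0 on both.

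Counted together, 3 of the 8 genes were past 2-fold lower in FBs after a single dose of bleomycin (Hsd11b1, Tsc22d3 and Zbtb16) and 0 past 2-fold higher. Of 7915 genes at a mean of 10 CPM or more, a minimum that Zbtb16 did not reach, 3.55% were past 2-fold lower and 5.46% past 2-fold higher. After repetitive doses 3 were past 2-fold lower (Hsd11b1, Per1 and Zbtb16) and 1 higher (Fkbp5), where 2.26% and 4.84% of 8788 genes were. The median log2 ratio over the 8 genes was -0.64 and -0.85, beside 0.05 and 0.07 over all genes. As the genes were chosen with earlier results of these data known, these counts describe them and test nothing.

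Among LipoFBs alone, 2 genes (Tsc22d3 and Zbtb16) were past 2-fold lower after a single dose and 0 higher, where 2.66% and 4.72% of 7779 genes were. Zbtb16, at 7.91 CPM and 2.73 CPM in these LipoFBs, did not reach the minimum of 10 CPM set for the 7779 genes. After repetitive doses 3 genes (Per1, Zbtb16 and Sgk1) were past 2-fold lower and 1 (Fkbp5) higher, where 1.82% and 4.26% of 8685 genes were. Median log2 ratios of the genes were -0.31 and -0.79. Among MatrixFBs alone, 1 gene (Tsc22d3) was past 2-fold lower after a single dose and 2 (Per1 and Sgk1) after repetitive doses, with 0 higher in either. Of all genes in MatrixFBs, 5.13% were past 2-fold lower and 5.49% higher after a single dose, and 1.59% and 1.75% after repetitive doses. Hsd11b1 thus passed 2-fold in all FBs of both experiments and in LipoFBs of neither.

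**Figure D3:**
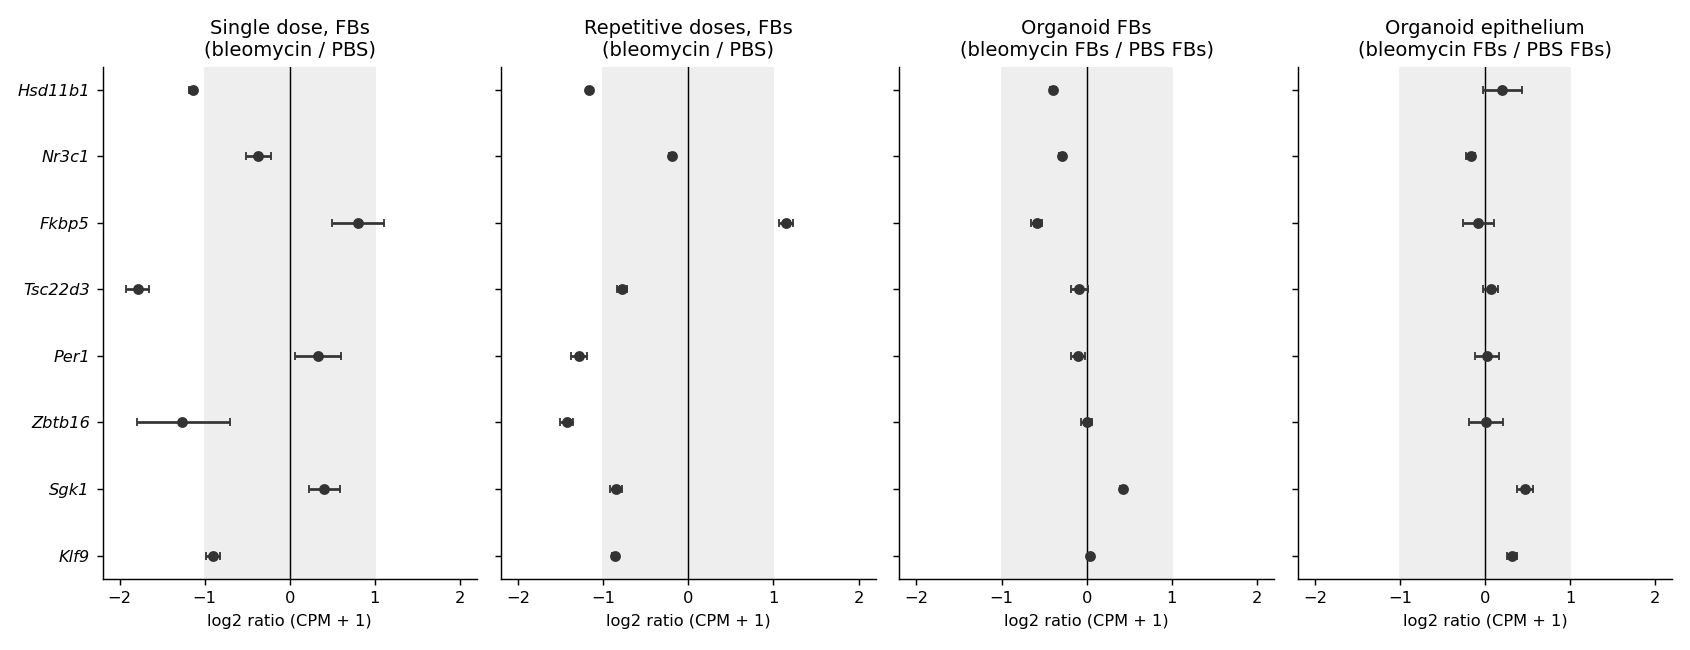
Log2 ratios (CPM + 1) of bleomycin over PBS, or of fibrogenic over normal organoids, for each of the 8 genes, with exact 95% counting intervals and a shaded band up to a 2-fold difference. In lung FBs the values run from -1.79 (Tsc22d3, single dose) to 1.15 (Fkbp5, repetitive doses), and in organoids none passes 2-fold.

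Promoter sequence is shown for the genes whose window held a letter match to a motif tied to the receptor or to the clock. RefSeq promoter windows (build GRCm38.p6, 250 bases before to 50 after a start) existed for 6 of the 8 genes, 14 windows in all, and the motifs were read on both strands. The full glucocorticoid response element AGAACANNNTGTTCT was in 1 of the 14 windows, at Sgk1, and in 0.00913% of 32851 mouse windows. The single hexamer TGTTCT, which that element contains, was in 4 of the 14, all at Sgk1 or Tsc22d3, and in 19.0% of all windows. The E-box CACGTG, the element of the clock factors, was in 3 of the 14, at Per1, Fkbp5 and Sgk1, and in 7.15% of all. At Sgk1 it began 246 bases before the start, in the window that held the full response element. The cyclic AMP element TGACGTCA was in 0 of the 14 and in 1.79% of all. In the stretches that follow, capitals mark the response element in Sgk1, the hexamer in Tsc22d3 and the E-box in Per1 and Fkbp5. None overlaps an annotated exon of its gene in Gencode M21. The Sgk1, Per1 and Fkbp5 stretches lie in introns of 5 of 13, 1 of 6 and 3 of 15 annotated transcripts, and the Tsc22d3 stretch lies outside all 6 of its transcripts.
Sgk1, chr10:21993661-21993755, plus strand: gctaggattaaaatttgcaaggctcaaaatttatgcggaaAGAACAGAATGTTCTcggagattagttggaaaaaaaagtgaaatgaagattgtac
Tsc22d3, chrX:140600662-140600747, minus strand: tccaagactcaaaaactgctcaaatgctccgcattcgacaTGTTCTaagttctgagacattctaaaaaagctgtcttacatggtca
Per1, chr11:69098743-69098828, plus strand: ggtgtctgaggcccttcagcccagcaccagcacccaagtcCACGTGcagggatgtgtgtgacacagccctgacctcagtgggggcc
Fkbp5, chr17:28486273-28486358, minus strand: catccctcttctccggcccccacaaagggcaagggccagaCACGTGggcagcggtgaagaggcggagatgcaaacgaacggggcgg

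The marked motifs start 189 bases before 1 of 6 RefSeq starts of Sgk1, 185 before 1 of 3 of Tsc22d3, 166 before 1 of 2 of Per1 and 169 before the single start of Fkbp5 in the table. A match is a description of the letters, and no match says only that they are not in the window. In all FBs, Sgk1 and Per1 differed in sign between the regimens, and Tsc22d3 and Fkbp5 were of opposite sign within each. Whether a motif bears on a ratio was not tested. Hsd11b1 (chromosome 1, 193221634 to 193264075) and Klf9 (chromosome 19, 23141226 to 23168134) had windows with no match to any of the 4 motifs.

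Other genes of the pathway, from a list of 36 without the 8, included higher and lower ones. The list mixes hormone-induced genes with receptor chaperones, coregulators and the inactivating enzyme Hsd11b2. Its counts and medians therefore give no direction for the pathway. After a single dose 6 were past 2-fold lower and 7 higher in FBs, where 3.55% and 5.46% of all genes were, and 20 ratios lay below 0 and 16 above, with a median log2 ratio of -0.16 over the list (32 of 36 at 10 CPM or more). After repetitive doses 3 were lower and 2 higher, where 2.26% and 4.84% of all genes were, and 26 lay below 0 and 10 above, with a median of -0.27 (34 of 36 at 10 CPM or more). Ddit4, among the higher genes of both experiments, did not reach the mean of 10 CPM set for all genes. It was 2.75 CPM and 16.96 CPM after a single dose of PBS and bleomycin, and 1.12 CPM and 7.02 CPM after repetitive doses. H6pd, which supplies the cofactor for the Hsd11b1 reaction, was 161 CPM after PBS and 139 CPM after bleomycin in the single-dose experiment, and 156 CPM and 108 CPM in the repetitive one. Hsd11b2, the enzyme that inactivates the hormone, was under 2 CPM in FBs of all 4 lung libraries. Nr3c2, the mineralocorticoid receptor, was 85.4 CPM and 52.0 CPM after repetitive PBS and bleomycin and under 4 CPM in the single-dose libraries.

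Some of these genes lay far from 0. Klf15, a glucocorticoid-induced metabolic regulator, was 62.4 CPM after a single dose of PBS and 14.4 CPM after bleomycin. After repetitive doses Klf15 was not among the 3 lowest ratios of the list, which ran from -1.49 to -1.11. That rank does not show an absent difference. The metallothionein gene Mt2 was 404 CPM and 1706 CPM after a single dose of PBS and bleomycin, and 201 CPM and 169 CPM after repetitive doses. Lcn2, an acute-phase protein gene, had the highest log2 ratio of the list in both experiments, at 4.34 and 3.68. Errfi1, an inhibitor of epidermal growth factor receptor signaling, had the lowest ratio after repetitive doses, at -1.49. It was not among the 3 lowest after a single dose, which ran from -2.04 to -1.43.

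The clock genes and the early response genes, which tissue digestion can induce, were measured beside the targets. Of 14 clock genes, 3 were past 2-fold lower after a single dose and 2 after repetitive doses, with 0 higher in either, where 3.55% and 2.26% of all genes were past 2-fold lower and 5.46% and 4.84% higher. The clock genes at 10 CPM or more were 10 of 14 in each experiment. Clock ratios below and above 0 numbered 12 and 2 after a single dose and 10 and 4 after repetitive doses. Nr1d1 had the lowest in both experiments, at -2.15 and -1.42. Dbp was 44.7 CPM and 16.9 CPM after a single dose, where Per1 was higher after bleomycin. After repetitive doses, where Per1 was lower, Dbp was 11.3 CPM and 6.20 CPM. Per2 was 5.35 CPM and 3.08 CPM after a single dose. Of 14 early response genes, 13 were past 2-fold lower after a single dose and 5 after repetitive doses, where 3.55% and 2.26% of all genes were. Their median log2 ratios were -1.22 and -0.83, beside 0.05 and 0.07 over all genes. Fos was 2623 CPM and 661 CPM after a single dose and 2631 CPM and 1464 CPM after repetitive doses. Dusp1, a phosphatase induced both by glucocorticoids and by stress, was 1187 CPM and 441 CPM, and 1086 CPM and 544 CPM. Hsd11b1, Nr3c1, Tsc22d3, Zbtb16 and Klf9 were lower in FBs of both bleomycin libraries. Per1, Sgk1 and Fkbp5 were higher in the single-dose library in which 13 of the 14 were lower. In single-dose MatrixFBs the early response median was -1.34, and 4 of the 8 genes lay below 0 and 4 above. In FBs of the repetitive experiment all 14 early response genes lay below 0. Of the 8 genes, 7 lay below 0, Per1 (-1.28) and Sgk1 (-0.85) among them, and Fkbp5 (1.15) lay above. The part of the early response genes in the values of the 8 genes was not tested.

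**Figure D4:**
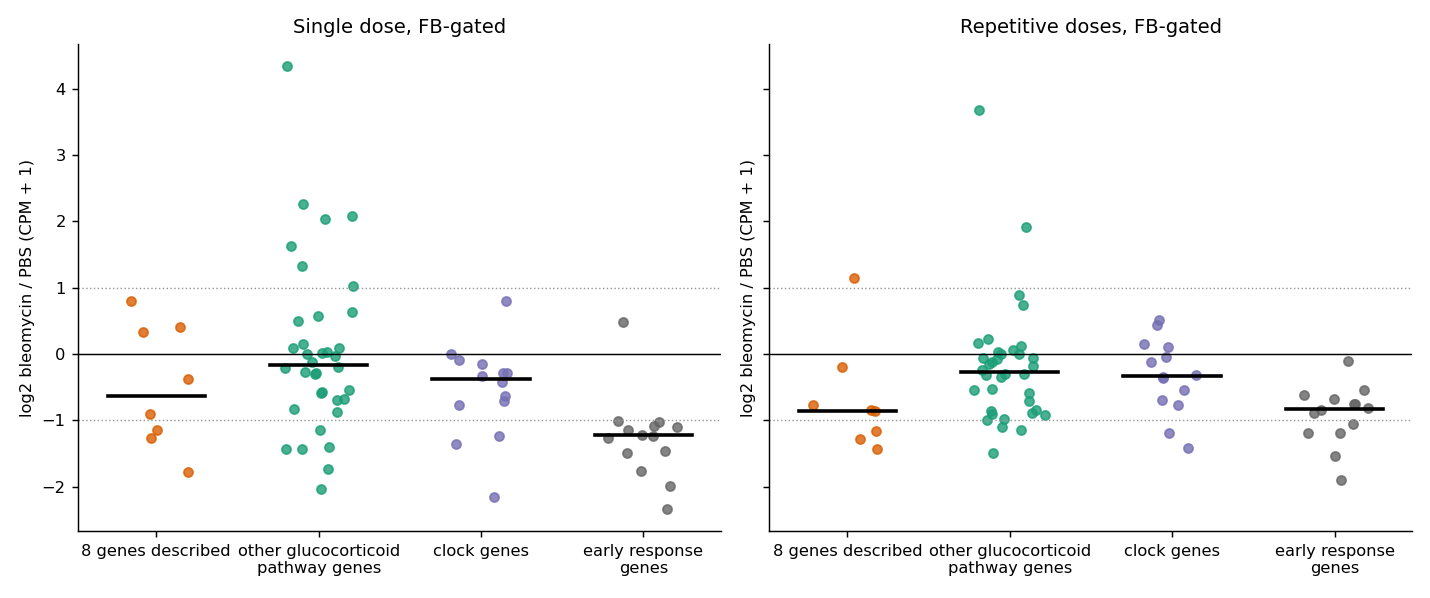
Log2 ratios (CPM + 1) of the 8 genes, 36 further pathway genes, 14 clock genes and 14 early response genes in lung FBs of the single-dose and repetitive experiments, 1 point a gene, with each list's median as a bar and dotted lines at 2-fold. The early response list has the lowest median after a single dose (-1.22), and the median of the 8 genes is -0.64 and -0.85 in the 2 experiments.

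Genes with a like pattern were ranked by Pearson's r of log2(CPM + 1) over 17 groups of gated lung barcodes, which come from only 4 libraries. Closest to Hsd11b1 were Lrat, which makes retinyl esters, Pygm, a glycogen phosphorylase, and Slc38a5, an amino acid transporter (r of 0.967, 0.963 and 0.959). Closest to Fkbp5 were Matn2, Dram1 and Il1rl2 (0.865, 0.848 and 0.837), and closest to Tsc22d3 were Ifngr1, G0s2 and Rp9 (0.848, 0.816 and 0.807). Closest to Zbtb16 were Insr, Clk4 and Eps15 (0.933, 0.928 and 0.927). With the mean of each experiment removed, Lrat stayed closest to Hsd11b1 (0.970) and Ifngr1 to Tsc22d3 (0.914), while Glipr2 took the place of Matn2 for Fkbp5 (0.889) and Gphn that of Insr for Zbtb16 (0.896).

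In the repetitive libraries the immune barcodes, 218 after PBS and 245 after bleomycin, were compared in the same way. Such barcodes were present although the cells had been sorted for GFP. Fkbp5 was 58.8 CPM (46.4 to 73.5) in them after PBS and 29.1 CPM (22.0 to 37.6) after bleomycin, against the direction in FBs. Sgk1 was 128 CPM (109 to 148) and 252 CPM (230 to 275), again against the direction in FBs. Tsc22d3, Per1, Zbtb16, Nr3c1 and Hsd11b1 were lower after bleomycin in immune barcodes as in FBs, with log2 ratios of -0.46, -0.85, -1.40, -0.51 and -0.72. Klf9 was 23.7 CPM and 17.8 CPM, with a log2 ratio of -0.39 whose interval (-1.09 to 0.32) covered no difference. Other markers moved in the same barcodes: cycling markers summed to 631 CPM after PBS and 175 CPM after bleomycin, LipoFB markers to 234 CPM and 95.8 CPM, and FB markers to 102 CPM and 170 CPM. MyoFB markers summed to 64.2 CPM and 4903 CPM, with 4 and 2 of the 6 at 0 and a median marker at 1.27 CPM after bleomycin. Immune markers summed to 4912 CPM and 4827 CPM. The makeup of the immune barcodes was not resolved, and the part of these markers in the immune values was not tested.

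In organoids Hsd11b1 was a transcript of the FBs. It was 86.9 CPM (85.2 to 88.6) in FBs of normal organoids and 65.7 CPM (64.5 to 67.0) in FBs of fibrogenic organoids. In epithelium it was 1.75 CPM (1.48 to 2.06) and 2.16 CPM (1.81 to 2.56), 49.6-fold and 30.4-fold less. The gate for LipoFBs could not be used as a name here, since barcodes passing it held 660 and 630 CPM of LipoFB markers and 14456 and 10994 CPM of MyoFB markers. Organoid FBs were treated as 1 group, with ratios of MyoFB-gated barcodes added where the conditions are compared.

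The other genes had their own division between the cell types. Fkbp5 was 31.9 CPM and 20.9 CPM in FBs of normal and fibrogenic organoids and 4.77 CPM and 4.45 CPM in epithelium. Klf9 was 161 CPM and 165 CPM in FBs and 61.3 CPM and 76.5 CPM in epithelium. Tsc22d3 was 9.72 CPM and 9.09 CPM in FBs and 23.7 CPM and 24.8 CPM in epithelium, the 1 gene besides Zbtb16 that was higher in epithelium in both libraries. Nr3c1 was 91.7 CPM and 74.7 CPM in FBs and 74.0 CPM and 65.6 CPM in epithelium. Per1 was 17.8 CPM and 16.5 CPM in FBs and 9.70 CPM and 9.87 CPM in epithelium. Sgk1 was 91.6 CPM and 124 CPM in FBs and 20.1 CPM and 28.1 CPM in epithelium, 4.56-fold and 4.39-fold less. Zbtb16 was nearly absent from the counts, with 4 and 6 UMIs in all organoid FBs and 21 and 16 in all epithelium.

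Sgk1 differed strongly within organoid epithelium. It was 9.73 CPM (8.90 to 10.6) in AEC2s of normal organoids and 92.4 CPM (86.2 to 98.9) in PATS cells, the transitional state between AEC2s and AEC1s, a 9.50-fold difference. In fibrogenic organoids the values were 12.8 CPM (11.7 to 14.0) and 82.0 CPM (77.0 to 87.2), a 6.40-fold difference. AEC1s, the flat gas-exchange cells, lay between, at 15.9 CPM and 20.1 CPM. The FBs, at 91.6 CPM (89.9 to 93.4) and 124 CPM (122 to 125), met the interval of PATS cells in normal organoids and stood above them in fibrogenic organoids. PATS cells made up 12.0% of gated epithelium in normal and 23.0% in fibrogenic organoids.

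Tsc22d3 and Nr3c1 were lower in PATS cells than in AEC2s. Tsc22d3 was 27.8 CPM and 31.3 CPM in AEC2s and 7.35 CPM and 8.26 CPM in PATS cells, 3.79-fold less in each library. Nr3c1 was 78.8 CPM and 72.5 CPM in AEC2s and 37.3 CPM and 36.5 CPM in PATS cells, with 81.7 CPM and 79.6 CPM in AEC1s. Fkbp5 was 2.48-fold and 2.29-fold higher in PATS cells than in AEC2s, on 78 and 80 UMIs in PATS cells.

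**Figure D5:**
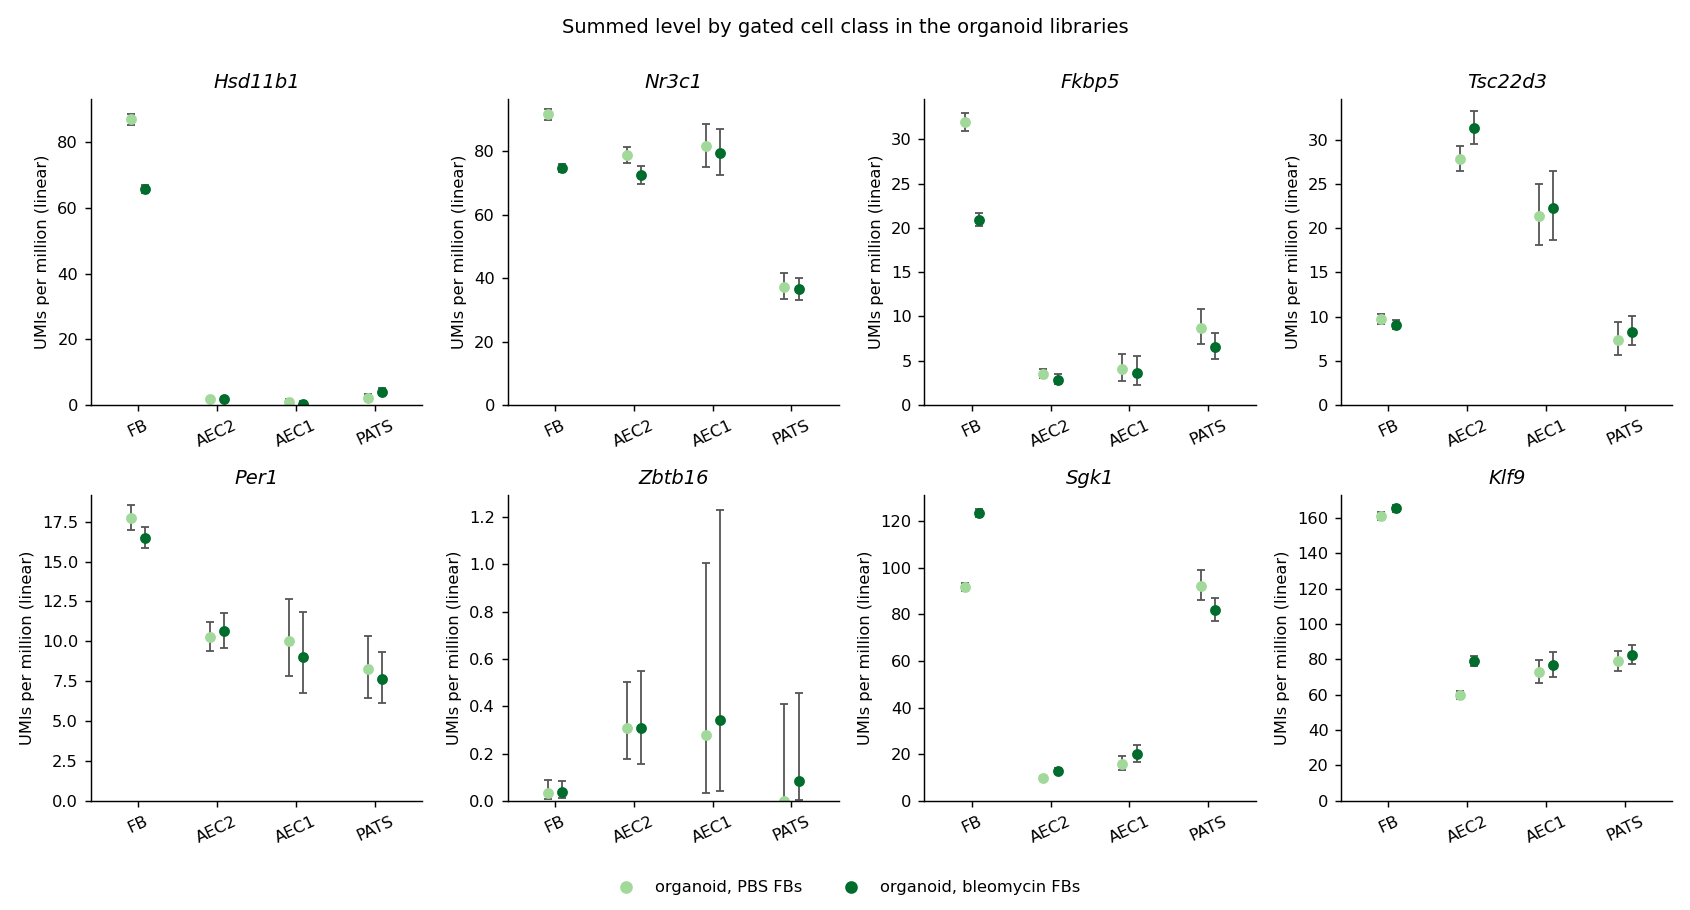
Levels of the 8 genes in CPM (linear axes, 1 panel a gene) in FBs and epithelial subsets of organoids with normal (PBS) or fibrogenic (bleomycin) FBs, with exact 95% counting intervals. Hsd11b1 is at 65.7 to 86.9 CPM in FBs and at or under 4.01 CPM in AEC2s, AEC1s and PATS cells, and Sgk1 is higher in PATS cells than in AEC2s or AEC1s in both libraries.

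Between fibrogenic and normal organoids 0 of the 8 genes passed 2-fold in FBs, where 0.735% of 8023 genes were past 2-fold lower and 0.199% past 2-fold higher. In epithelium 0 of the 8 passed, where 0.185% of 8106 genes were lower and 0.16% higher. Of the genes, 6 reached 10 CPM in organoid FBs and 4 in epithelium. The median log2 ratios over the 8 were -0.09 and 0.04. In FBs the largest differences were those of Fkbp5, with a log2 ratio of -0.59 (-0.65 to -0.52), Sgk1, with 0.43 (0.39 to 0.46), and Hsd11b1, with -0.40 (-0.44 to -0.36). In epithelium Sgk1 had a log2 ratio of 0.47 (0.37 to 0.56) and Klf9 of 0.32 (0.26 to 0.37). Within AEC2s the Sgk1 log2 ratio was 0.37, and within PATS cells it was -0.17. PATS cells made up 12.0% and 23.0% of gated epithelium in normal and fibrogenic organoids. The part of this shift in the epithelial values was not tested. Median depth was 47953 UMIs in FBs of normal and 7259 UMIs in FBs of fibrogenic organoids. Among FBs with at least 3000 UMIs the log2 ratios were -0.59 for Fkbp5, 0.43 for Sgk1 and -0.39 for Hsd11b1. Among FBs passing the MyoFB gate, a restriction chosen after seeing the data, they were -0.39, 0.12 and -0.54. Tsc22d3 and Per1 stood there at 0.06 and 0.14, against -0.09 and -0.10 in all organoid FBs.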

How the data were processed

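The 6 libraries were droplet scRNA-Seq libraries from the 10x Genomics Chromium platform. The authors counted reads with Cell Ranger 3.0.1 and worked in Seurat 3, per the submitters' processing notes, on the GRCm38 genome. The paper's methods give Gencode M17 without naming libraries. The single-dose tables hold 30830 and 30828 gene rows and the other 4 hold 32285. The deposited values are raw counts of UMIs for each gene in each cell barcode, not normalized.

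Counts were read with Python 3.11.15, numpy 2.4.6, scipy 1.17.1 and pandas 2.3.3, and plotted with matplotlib 3.10.9. Every count column belonged to a labelled sample. Barcodes under 1000 UMIs or above 25% mitochondrial counts were removed. A cell class needed 3 of its 6 markers, each at 1 UMI or more and at 1 or more per 10000 UMIs, and 2 more markers than any other class. A subset needed 3 of its 6 markers, each at 10% or more of its 99th percentile, and 1 more than any other subset. Barcodes with 3 cycling markers were set apart from the subsets. In the lung libraries 110 to 1789 FBs stood at the limit of 3 subset markers. FBs 1 marker short of that limit numbered 32 and 141 after a single dose of PBS and bleomycin, and 145 and 1112 after repetitive doses. No doublet caller was run. Barcodes with markers of several classes could pass where 1 class led by 2 markers, and 11 to 131 FBs of a library carried 3 or more markers of another class. The libraries of an experiment shared 2 (single dose), 28 (repetitive) and 13 (organoid) barcode sequences.

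Summed UMIs were expressed as CPM with exact Poisson intervals, shares with Clopper-Pearson intervals and ratios with exact conditional binomial intervals, all at 95%. With 1 library per condition no p-value was computed, and a gene was counted when it passed 2-fold. The minimum for a gene entering a count over all genes was 10 CPM as the mean of both libraries. Thinning to 2000 UMIs left out shallower barcodes. The ratio and interval steps were checked on simulated UMI sums, and the gates were not checked by simulation.

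The 8 genes and all lists were chosen with earlier results of these data known, and the gate limits were set after the counts had been seen. The text names the 8 genes, list genes tied to them and those with the 3 highest or lowest ratios, and the 3 genes most like a member among those at 50 CPM or more in at least 1 group.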

Additional observations from a re-analysis of the deposited data

Results flagged for a closer look

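Pairs of cell groups were compared for each of the 8 genes, and 7 of 56 such comparisons had log2 ratios of opposite sign whose counting intervals both left out 0. Of all genes at 10 CPM or more in both groups of a pair, 6.66% met the same rule, with 5.42% for FBs of the 2 lung experiments, 3.69% for their LipoFBs, 8.71% for FBs and immune barcodes of the repetitive experiment and 8.52% for AEC2s and PATS cells. The 7 are not independent, since Per1 and Sgk1 each count for FBs and again for the LipoFBs among them. The 56 include genes under 10 CPM, which the share over all genes leaves out. With 1 library per condition none of these differences was tested.

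Per1 had a log2 ratio of bleomycin over PBS of 0.33 in FBs after a single dose and of -1.28 after repetitive doses, and of 0.42 and -1.17 in LipoFBs. Sgk1 had ratios of 0.41 and -0.85 in FBs and of 0.57 and -1.02 in LipoFBs of the same experiments.

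Within the repetitive experiment Fkbp5 had a log2 ratio of 1.15 in FBs and of -0.99 in immune barcodes, and Sgk1 one of -0.85 in FBs and of 0.98 in immune barcodes. In organoids Sgk1 had a log2 ratio of fibrogenic over normal of 0.37 in AEC2s and of -0.17 in PATS cells.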

How the results depend on the processing

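No alternative reversed the direction of a value past 2-fold. No paired analysis was possible because each condition was 1 library, for which no test was run. Across counts of genes past 2-fold, the Hsd11b1 subset ratios and counts of genes with a lower share of barcodes with a UMI after bleomycin, 51 values under other settings stayed close to the reported one and 1 did not. The last of these counts was 4 of 8 after a single dose and 7 of 8 after repetitive doses, where 7.62% and 91.7% of all genes had a lower share, with median FB depths of 6875 (PBS) and 11594 UMIs (bleomycin) and of 10515 and 3754 UMIs. After thinning it was 5 and 7, where 47.8% and 44.4% of all genes did. The single-dose count in FBs was 2 lower and 1 higher, in place of 3 lower, when each barcode's CPM was averaged, and 2 lower with a pseudocount of 5 CPM. Both were called close, since the rule allowed 2 in place of 3 and took no account of direction. The organoid counts were 0 under every setting. With a stricter gate (1 more marker) the log2 ratio of Hsd11b1 in LipoFBs over MatrixFBs after repetitive PBS was 2.36 instead of 2.26. That ratio was the 1 value that did not stay close. Alternatives chosen after seeing the data were restricted to 1 FB subset. In MatrixFBs alone 1 gene was past 2-fold after a single dose and 2 after repetitive doses, against 3 and 4 in all FBs. All 3 were lower, where 5.13% and 1.59% of all genes were past 2-fold lower in MatrixFBs, and the cause was not tested. Of the ratios of single genes, 253 stayed within their counting interval and 35 left it under other filters, gates, pseudocounts or scalings, while 10 stayed and 30 left it when restricted to a subset.

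Over 9 other settings of filter, gate, pseudocount or scaling the log2 ratio of Hsd11b1 in FBs stayed between -1.19 and -1.10 after a single dose and between -1.31 and -1.14 after repetitive doses. That of Fkbp5 ran from 0.69 to 1.03 and from 1.04 to 1.16. Zbtb16 after a single dose ran from -1.36 to -0.75, past 2-fold in 7 of 9. Limits of the values include the lack of replicate libraries, the few Zbtb16 UMIs after a single dose and the choice of FB subset. After a single dose Hsd11b1 was -0.47 in LipoFBs against -1.14 in all FBs, and Fkbp5 0.15 against 0.80. With at least 3000 UMIs a barcode the repetitive Hsd11b1 ratio was -1.14, and averaging each barcode's CPM moved Klf9 in organoid FBs from 0.04 to -0.34.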
